A study of Mus musculus with 17 samples.

Results

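The 4 bulk RNA-seq libraries of the lung-derived lines, 2 labelled CD44high and 2 labelled CD44low, were compared across genes, out of 17 samples in the series. All genes with at least 1 TPM, the transcripts of a gene per 1000000 transcripts of the library, in at least 2 of these 4 libraries were included, 12773 of the 55450 genes quantified. The lines were grown from lung tissue with metastatic disease of female FVB/NJ MMTV-PyMT mice, 10 to 12 weeks old, in which the mouse mammary tumor virus promoter drives the polyoma middle T oncogene in mammary epithelium. Every line, in both groups and in the other organs, carries this background and no further treatment. After about a month of culture, with trypsin timing used to leave fibroblasts behind, cells were sorted as EpCAM-high and either CD44low or CD44high. The 2 libraries of a group are distinct clonal isolates from different mice, so that mouse and clone cannot be told apart, and the mouse of each line is not given. The other 10 bulk libraries, 2 each for CD44low and CD44high lines from lymph node (LN) and bone marrow (BM) and 2 for the mammary fat pad (MFP) primary tumor, which the labels call a tissue and the methods a derived cell line, served as the reference for levels. Single-cell libraries of lung CD44high and lung CD44low cells, 1 each (titled as the first replicate), gave a second measurement. The study's methods describe replicate single-cell samples, and no other one of lung was analysed here.

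CD44 is a surface receptor for hyaluronan that is widely used to sort breast cancer cells into populations with different mesenchymal, stem-like and migratory behavior, and EpCAM is an adhesion molecule of epithelial cells. Carcinoma cells that undergo epithelial-mesenchymal transition (EMT) lower keratins and cadherin junctions and raise vimentin and EMT transcription factors. Fibroblasts share many of those mesenchymal genes and are further known for fibrillar collagens, small proteoglycans such as decorin, and the enzymes that crosslink matrix.

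The sorted genes did not follow the labels. Cd44 (mm10, chr2:102811141-102901665, minus strand) was at 12.2 and 21.6 TPM in the libraries labelled CD44low and at 21.9 and 12.1 TPM in those labelled CD44high. These ranges overlapped, with a difference of 0.00 ± 0.44 (SE) in log2(TPM + 1) and an adjusted p of 0.998 by limma. All 4 values were below the 43.8 to 147 TPM of the 8 LN and BM libraries. Epcam (chr17:87635979-87651129, plus strand) was listed at 0 in both CD44low-labelled libraries and at 0.23 and 0.86 TPM in the CD44high-labelled ones, against 315 to 941 TPM in LN and BM, and it was too low to be tested. The epithelial cadherin Cdh1 was at 0.03 TPM or less in all 4 lung libraries and at 18.7 to 51.5 TPM in LN and BM. RNA levels after culture need not equal the surface protein at the time of the sort, and the names CD44high and CD44low are used here as labels only.

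Vim and Zeb1, mesenchymal genes that mark EMT, were higher in all 4 lung libraries than in LN and BM, which did not hold for other EMT genes such as S100a4 and Snai1, described further on. Vim, which encodes vimentin, was at 1086 and 1215 TPM in the CD44low-labelled and 1628 and 2294 TPM in the CD44high-labelled lines, against 297 to 762 TPM in LN and BM and at most 33.5 TPM in MFP. The EMT repressor Zeb1 was at 46.1 and 49.98 TPM and at 58.6 and 38.6 TPM, with at most 9.25 TPM in LN and BM. Neither difference between the lung groups passed the test by limma (adjusted p = 0.13 and 0.989). The Vim values of the groups did not overlap, as held for 73.5% of all genes tested. The plot of sorted, epithelial and mesenchymal genes shows these levels library by library.

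**Figure D1:**
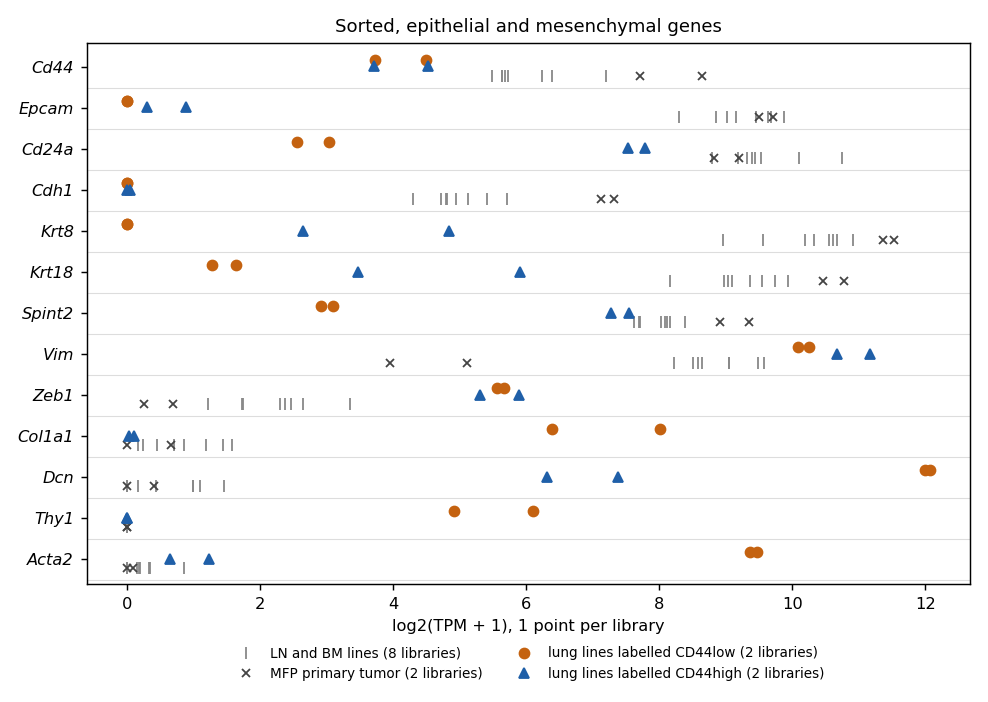
Levels of 13 genes as log2(TPM + 1), 1 point per library: orange circles for the 2 lung lines labelled CD44low, blue triangles for the 2 labelled CD44high, grey ticks for the 8 LN and BM lines and crosses for the 2 MFP libraries. The lung groups overlap for Cd44 and lie near 0 for Epcam and Cdh1, while Cd24a (4.88 and 7.24 against 184 and 220 TPM) and Dcn (4091 and 4315 against 166 and 78.9 TPM) separate them.

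Within a group the clones were alike, and between groups they were not. Over the genes tested, Spearman correlations were 0.976 between the CD44low-labelled and 0.955 between the CD44high-labelled libraries, and 0.714 to 0.736 across the groups. Correlations with the LN and BM lines ran from 0.662 to 0.741 for the CD44low-labelled and from 0.727 to 0.808 for the CD44high-labelled libraries. TPM values do not keep the number of reads of a library, so counting error is unknown, and 11508 to 12351 genes reached 1 TPM. In the CD44high-labelled libraries, 18.4% and 15.9% of all TPM came from the mitochondrial genome, compared with 5.12% and 6.21% in the CD44low-labelled ones. The first CD44high-labelled library also held 6.30% of its TPM in nuclear ribosomal RNA genes, against 0.837% to 0.895% in the other 3.

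With a call defined as an absolute log2 difference over 2 and an adjusted p under 0.05, 389 genes were higher and 1372 lower in the CD44high-labelled lines. These are 3.05% and 10.7% of the genes tested, 13.8% together, and 77.9% of calls were lower. The values of the groups did not overlap for any of the 1761 called genes, but this was also so for 73.5% of all genes tested. The median difference over all genes was -0.09. In bulk libraries such as these, fewer cells of a type and less RNA per cell cannot be told apart. A fit of the 4 lung libraries alone, in which no other organ adds to the estimate of the spread, called 1824 genes, among them 386 of the 389 and all 1372. The SE and p values below are from the fit of all 14 libraries and so include the spread of the other organs. For Fgf10, at 0 in the other organs, the SE was 0.17 there and 0.24 in the lung-only fit. Its adjusted p by limma was 7.02e-10 and 7.93e-05. For Tfap2a, uneven in the other organs, the SE was 0.75 and 0.27. A log2 difference over 6 was found for 96 genes called lower and 19 called higher, and 264 of the 1372 genes called lower were listed at 0 in both CD44high-labelled libraries, as were 61 of the 389 called higher in both CD44low-labelled ones. Of all genes tested, 403 were at 0 in both CD44high-labelled and 106 in both CD44low-labelled libraries. Such genes passed the filter only through the other group. For a gene listed at 0 in a whole group no difference is given below, since TPM sets no floor. A value just short of the threshold (a difference between 1.9 and 2 in size with an adjusted p under 0.05) was found for 148 genes. With 2 libraries a group, an exact permutation test on a single gene cannot give a two-sided p under 0.333, so all tests below are from the fit across genes.

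**Figure D2:**
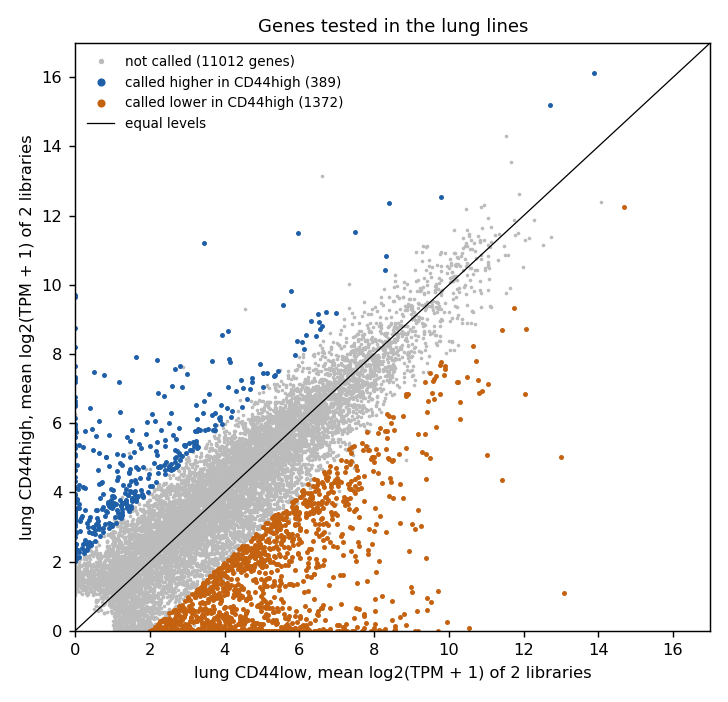
Mean log2(TPM + 1) of the 2 libraries labelled CD44low (horizontal axis) against that of the 2 labelled CD44high (vertical axis) for the 12773 genes tested, with 389 called higher in blue and 1372 called lower in orange. Many orange genes lie along the bottom of the plot, where the CD44high-labelled lines are at or near 0 TPM.

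Several of the largest rises of protein-coding genes, by the rule for named genes, started from no or almost no RNA in the CD44low-labelled lines. Sprr1a, a small proline-rich protein of the cornified envelope, was listed at 0 in both CD44low-labelled libraries and was at 200 and 203 TPM in the CD44high-labelled ones (adjusted p = 7.02e-10). It was listed at 0 in all 8 LN and BM libraries and was at 1.24 and 1.39 TPM in MFP. Gata3, the transcription factor that specifies mammary luminal cells, was at 2.14 and 2.00 TPM against 187 and 305 TPM, a difference of 6.29 ± 0.41 (adjusted p = 9.38e-07). Its level in the CD44high-labelled lines exceeded that in LN and BM (1.15 to 4.08 TPM) and in MFP (41.4 and 36.6 TPM). Casp1, the inflammasome protease that matures interleukin-1 beta, was listed at 0 in the CD44low-labelled lines and reached 50.8 and 73.7 TPM in the CD44high-labelled ones, with 12.4 to 66.3 TPM in LN and BM. Irx2, an Iroquois homeobox factor, went from at most 0.02 TPM to 63.6 and 44.05 TPM (5.74 ± 0.34, adjusted p = 4.87e-07).

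The other large rises were enzymes, membrane proteins and regulators of several kinds. Mme encodes neprilysin, a surface peptidase, and was at 3.72 and 3.35 TPM against 322 and 158 TPM (5.64 ± 0.43, adjusted p = 3.31e-06). Hs3st1, a heparan sulfate sulfotransferase, was at 0.29 and 0.57 TPM against 283 and 112 TPM. The synaptotagmin Syt13 was at 1.15 and 1.36 TPM against 153 and 138 TPM, and the coronin Coro6 at 0.33 and 0.30 TPM against 96.8 and 75.9 TPM. The zinc finger gene Zfp711, the submaxillary gland androgen-regulated gene Smr2 and the phosphodiesterase Gdpd3 were listed at 0 in both CD44low-labelled lines and reached 33.2 to 67.0, 63.9 to 127 and 132 to 182 TPM. Inmt, an indolethylamine methyltransferase, was the least even of these genes, at 430 TPM in the first and 65.9 TPM in the second CD44high-labelled clone, both far above the 0.54 and 0.91 TPM of the CD44low-labelled ones.

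**Figure D3:**
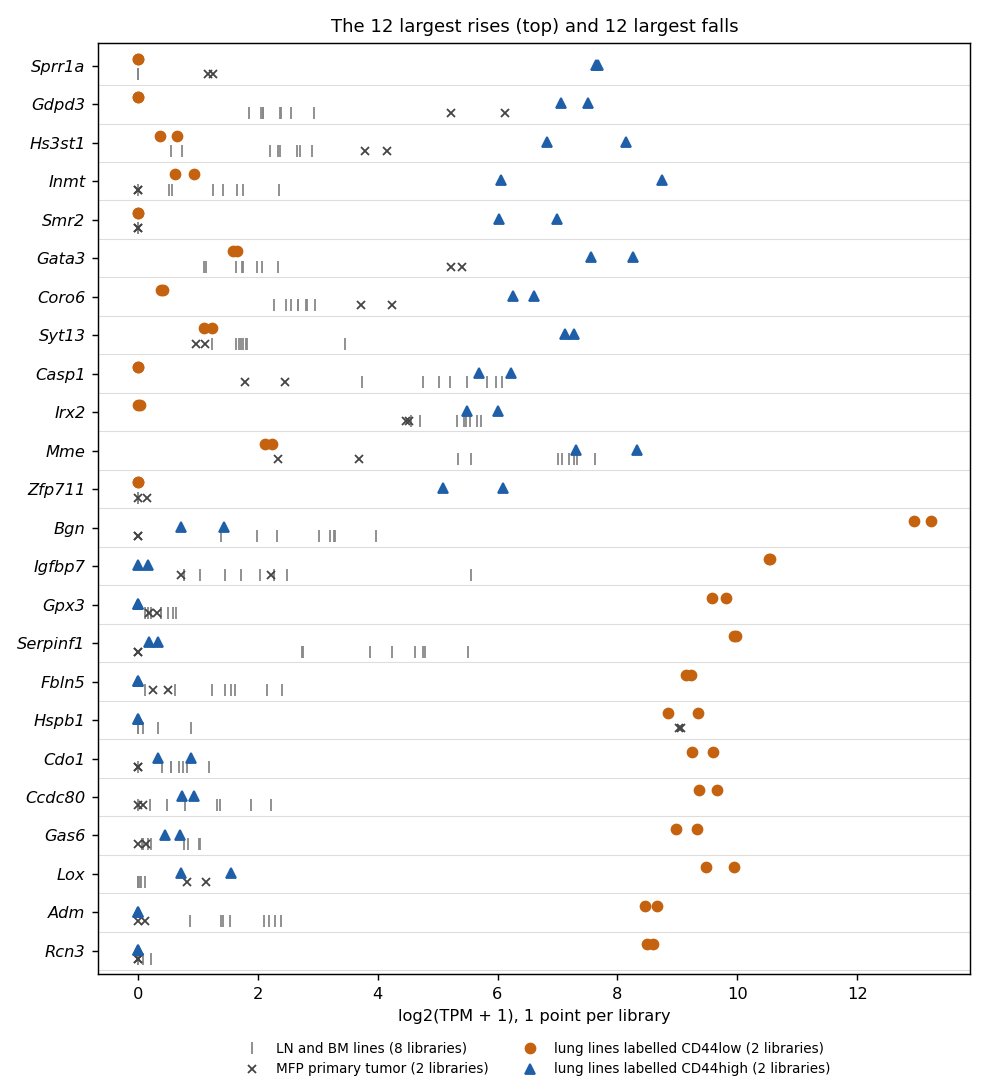
The 12 largest rises and 12 largest falls in the lung lines labelled CD44high among protein-coding genes that met the rule for named genes, as log2(TPM + 1) in each library (symbols as in the plot of sorted genes). The groups are separated for all 24 genes, and for the falls the LN, BM and MFP libraries lie far below the CD44low-labelled lines, except Hspb1, which was at 519 and 535 TPM in MFP.

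Matrix and other secreted proteins were among the largest falls. Bgn (chrX:73483602-73495933, plus strand) encodes biglycan, a small leucine-rich proteoglycan, and was at 7905 and 9601 TPM in the CD44low-labelled lines against 1.71 and 0.65 TPM in the CD44high-labelled ones. Its difference of -12.01 ± 0.49 was the largest fall by the rule for named genes (adjusted p = 2.38e-08). Igfbp7, an insulin-like growth factor binding protein, was at 1485 and 1500 TPM against 0.13 and 0 TPM, and Serpinf1, which encodes the antiangiogenic factor PEDF, at 979 and 1007 TPM against 0.26 and 0.14 TPM. The elastic-fiber protein gene Fbln5 and the plasma glutathione peroxidase gene Gpx3 were at 562 and 600 TPM and at 764 and 899 TPM, and both were listed at 0 in the CD44high-labelled lines. Lox, the enzyme that crosslinks collagen and elastin, went from 715 and 984 TPM to 1.95 and 0.64 TPM (-8.58 ± 0.30). Gas6, the ligand of the TAM receptors, was at 501 and 640 TPM against 0.36 and 0.62 TPM. Also in this group were Ccdc80, the cysteine dioxygenase gene Cdo1, the adrenomedullin gene Adm, the collagen chaperone gene Rcn3 and the small heat shock protein gene Hspb1, with at least 353 TPM in every CD44low-labelled and at most 0.91 TPM in every CD44high-labelled library.

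Gene lists were used to describe the calls by function. Members and lists were chosen with earlier results of these data known, so each list is given by its counts and its median beside those of all genes (3.05% higher, 10.7% lower, median -0.09). In lists where most calls were lower, the few members that were higher are named too, after their values were seen.

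Keratin and junction genes were mostly absent. Of 34 listed, 7 were tested, and 3 of these were higher and none lower in the CD44high-labelled lines (median 1.83). Krt8 was listed at 0 in both CD44low-labelled lines and was at 5.26 and 27.8 TPM in the CD44high-labelled ones, and its partner Krt18 went from 1.42 and 2.11 TPM to 10.1 and 58.9 TPM (3.23 ± 0.64, adjusted p = 0.0029). The second CD44high-labelled clone was higher than the first for both. Even so, these levels were far below those of LN and BM, where Krt8 was at 498 to 1926 TPM. Spint2, a serine protease inhibitor of epithelia, rose from 7.52 and 6.57 TPM to 186 and 154 TPM, near the lower end of LN and BM (196 to 333 TPM). The summed TPM of 11 epithelial markers was 2.43 and 2.67 in the CD44low-labelled lines, 15.99 and 87.7 in the CD44high-labelled lines and 2257 to 4847 in LN and BM. In each CD44high-labelled library 5 of the 11 were at 0, Krt19 and Esrp1 among them, but Krt19 was also at 0 in all 8 LN and BM libraries.

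Cd24a (chr10:43578284-43584265, plus strand), the glycoprotein that is low on stem-like breast cancer cells, was higher as well. It was at 4.88 and 7.24 TPM in the CD44low-labelled and 184 and 220 TPM in the CD44high-labelled lines (4.86 ± 0.30, adjusted p = 6.12e-07), below the 444 to 1711 TPM of LN and BM. Of the 14 sorting and stem cell surface genes tested, Cd24a alone was higher and 4 were lower (median -1.10). These were Aldh1a1, Thy1, Procr and Eng, of which Eng, the TGF-beta co-receptor endoglin, was at 153 and 174 TPM against 5.73 and 8.51 TPM. Thy1, a surface antigen of fibroblasts and other stromal cells, was at 29.1 and 68.0 TPM in the CD44low-labelled lines and listed at 0 in the 2 CD44high-labelled and all other libraries. Procr, the protein C receptor that marks mammary stem cells, was at 45.2 and 36.4 TPM against 0 and 0.30 TPM.

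Of 7 epithelial transcription and splicing regulators tested, 3 were higher, 1 was lower and 3 were not called (median 0.73). Besides Gata3, Trps1, a GATA-type repressor of luminal cells, went from 1.48 and 2.10 TPM to 61.0 and 30.9 TPM (4.0 ± 0.32), and Tfap2a from 0.05 and 0.04 TPM to 14.9 and 11.2 TPM (3.74 ± 0.75). Cebpb was lower, at 99.9 and 544 TPM against 7.99 and 5.62 TPM, and its CD44low-labelled clones were far apart. Outside this list, the progesterone receptor gene Pgr was at 0.20 and 0.47 TPM against 12.5 and 6.05 TPM, and the estrogen receptor gene Esr1 at 3.74 and 5.0 TPM against 30.0 and 16.1 TPM, a difference of 2.11 ± 0.32 that fell below the threshold of 2 without the first CD44high-labelled library (1.68) or without the first CD44low-labelled one (1.94). Of the 10 luminal and milk markers, which summed to 3.94 and 5.52 TPM against 42.8 and 22.2 TPM, these were the only 2 tested, and milk protein genes such as Wap and Csn2 were listed at 0 in all 4 lung libraries. The oxytocin receptor gene Oxtr, expressed in myoepithelial cells, went from 0.05 and 0.09 TPM to 33.5 and 49.5 TPM, while the basal keratin Krt14 was listed at 0 in all 4. The 8 myoepithelial or basal markers summed to 659 and 713 TPM against 39.5 and 52.8 TPM, and nearly all of the former was Acta2.

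Fibroblast markers moved with the EMT, matrix, contractile and positional genes, and 3 of them are also in the collagen list and 3 in the matrix glycoprotein list. Their 12 members summed to 4805 and 5197 TPM in the CD44low-labelled lines, 197 and 89.9 TPM in the CD44high-labelled lines, 3.54 to 20.3 TPM in LN and BM and 0.48 and 1.27 TPM in MFP. Of the 12, 9 were tested and 8 of these were lower, with Pdgfra not called (29.0 and 43.0 TPM against 21.4 and 4.51 TPM). Col1a2, Fap, Thy1 and Dpt were at 0 in both CD44high-labelled libraries, and Fap alone was at 0 in both CD44low-labelled ones. Most of the summed level was Dcn, which encodes decorin, at 4091 and 4315 TPM against 166 and 78.9 TPM. A list of 12 lung fibroblast and pericyte markers summed to 509 and 605 TPM against 26.3 and 16.7 TPM, with 6 of 8 tested members lower. Mesothelial markers summed to 18.3 and 22.1 TPM against 21.8 and 24.5 TPM, nearly all of it Wt1. Endothelial markers summed to at most 0.23 TPM in each of the 4, alveolar and airway epithelial markers to at most 0.79 TPM, and the leukocyte marker Ptprc was at 0.20 TPM or less. All 10 macrophage and leukocyte markers summed to 39.2 and 39.1 TPM against 10.3 and 23.5 TPM, most of it Lyz2. Of the 2 tested neither was called, though Lyz2 was called lower without the second CD44high-labelled library (-2.33). The part of fibroblast-type cells in any difference described here was not tested.

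EMT and mesenchymal genes were split. Of 22 tested, 2 of which are also fibroblast markers, 9 were lower and 1 higher (median -1.78), and 12 were not called, Vim and Zeb1 among them. Smooth muscle actin Acta2 (chr19:34241090-34255590, minus strand) was at 657 and 711 TPM against 1.36 and 0.56 TPM (-8.48 ± 0.31, adjusted p = 9.25e-09). Tagln, which encodes the actin-binding protein transgelin, was at 62.4 and 80.2 TPM and was listed at 0 in the CD44high-labelled lines. The EMT repressor Snai1 was at 58.4 and 50.6 TPM against 0 and 0.07 TPM, with 0.34 to 3.29 TPM in LN and BM. S100a4, a calcium-binding protein of motile mesenchymal cells, was at 671 and 661 TPM against 18.1 and 61.8 TPM (-4.26 ± 0.78), with 62.9 to 391 TPM in LN and BM. N-cadherin Cdh2 was the one member that was higher, at 4.11 and 5.85 TPM against 73.3 and 83.6 TPM (3.74 ± 0.55). Fibronectin, encoded by Fn1, was high in all 4 clones with no order between the groups, at 2012 and 4136 TPM against 3669 and 956 TPM.

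Collagens and other matrix genes were mostly lower. For the collagens, 10 of 17 tested members (58.8%) were lower and 1 was higher (median -3.37). Col1a1 was at 83.3 and 257 TPM against 0.08 and 0.02 TPM (-7.13 ± 0.53), and Col1a2, its partner in type I collagen, at 47.8 and 77.8 TPM and listed at 0 in the CD44high-labelled lines, as were Col5a2 (57.0 and 93.1 TPM) and Col28a1 (85.1 and 143 TPM). The basement membrane chain Col4a5 was higher instead, at 0.63 and 1.34 TPM against 13.9 and 18.4 TPM. Of 47 matrix glycoproteins, proteoglycans and crosslinking enzymes tested, 30 were lower and none higher (median -2.61), led by Bgn, Fbln5, Lox and Lum. The keratan sulfate proteoglycan gene Lum was at 362 and 217 TPM against 0 and 0.05 TPM.

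Matrix proteases and their inhibitors included 18 lower and 1 higher of 35 (median -2.02). The procollagen C-proteinase enhancer gene Pcolce was at 505 and 506 TPM against 1.0 and 1.84 TPM, and the membrane-bound collagenase gene Mmp14 at 107 and 118 TPM and listed at 0 in the CD44high-labelled lines, although LN and BM lines held 22.7 to 117 TPM. Htra1, a secreted serine protease that cleaves matrix proteins, was at 75.0 and 50.6 TPM in the CD44low-labelled and 2657 and 3170 TPM in the CD44high-labelled lines (5.54 ± 0.41, adjusted p = 2.69e-06). Among 11 integrins tested, 2 were lower and 1 higher (median -0.67). The collagen receptor subunits Itga11 (251.1 and 299.99 TPM and listed at 0 in the CD44high-labelled lines) and Itga1 (42.4 and 61.6 TPM against 2.47 and 3.08) were lower, and the laminin receptor subunit Itga3 was higher, at 5.62 and 4.53 TPM against 196 and 90.6 TPM (4.47 ± 0.32).

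**Figure D4:**
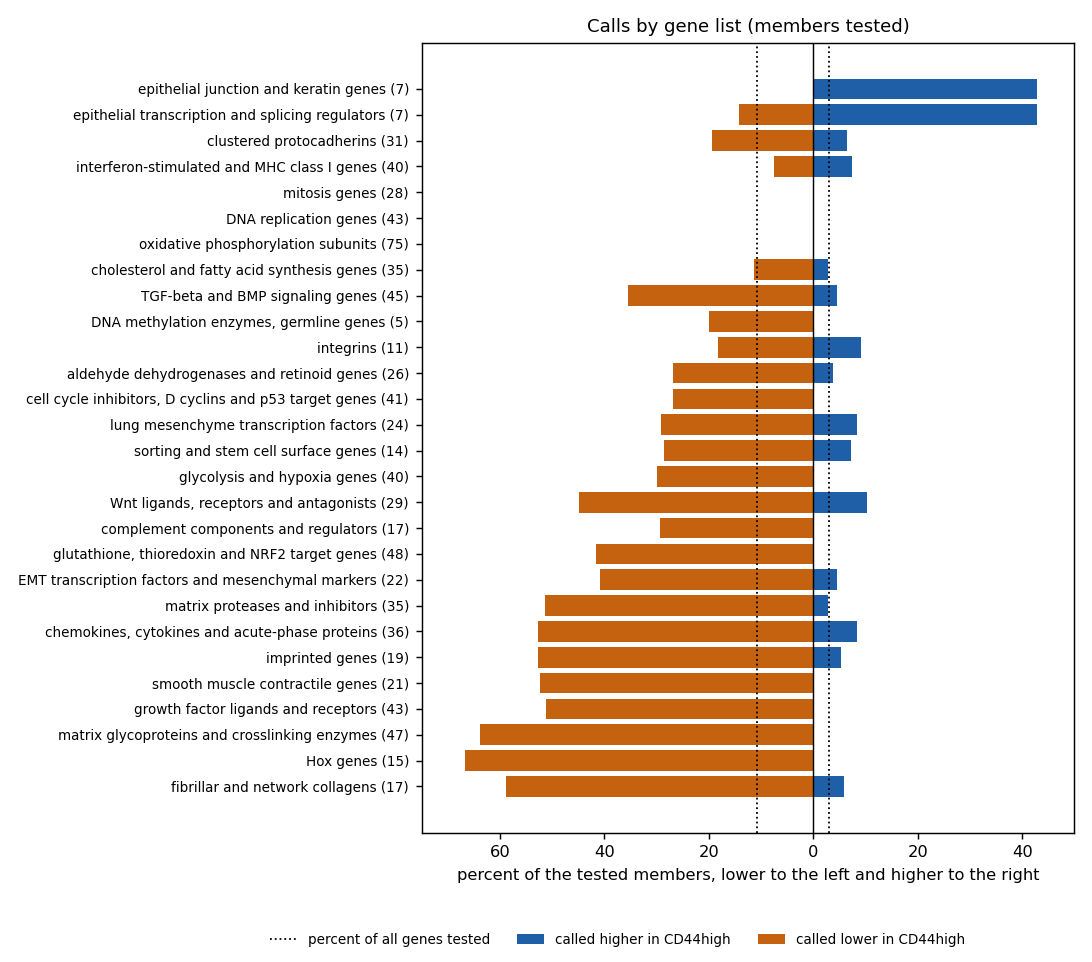
Percent of the tested members of each gene list (number tested in brackets) called lower, to the left in orange, or higher, to the right in blue, in the lung lines labelled CD44high, ordered by the median difference of the list. Dotted lines mark 10.7% lower and 3.05% higher over all genes, and the mitosis, DNA replication and oxidative phosphorylation lists have no call.

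Of the contractile genes, 11 of 21 tested members were lower, none was higher and 10 were not called (median -2.22). The myosin light chain gene Myl9 was at 173 and 178 TPM and was listed at 0 in the CD44high-labelled lines, and the kinase gene Mylk was at 64.2 and 78.8 TPM against 0.19 and 0.07 TPM. Calponin 1, encoded by Cnn1, was at 35.3 and 29.6 TPM against 0.53 and 0.15 TPM. The 6 smooth muscle markers summed to 696 and 744 TPM against 1.89 and 0.73 TPM, and Des, Actg2 and Lmod1 were at 0 in both CD44high-labelled lines. Many contractile genes are controlled by serum response factor, encoded by Srf, which binds the CArG box and was not called itself (4.07 and 5.61 TPM against 11.5 and 3.87 TPM). In RefSeq promoter windows of GRCm38.p6 (250 bases before to 50 bases after the start), 20 of the 21 tested contractile genes had an entry. Of these 20 genes, 2 held a CArG box in at least 1 of their windows. Of all 32851 windows, 1.63% held one, a share of windows and not of genes. The pattern searched is its own reverse complement, so that a match on one strand is a match on the other. The 2 windows are shown because their genes behaved differently: Myl9 was lost, while the calponin gene Cnn2 was at 849 and 904 TPM against 288 and 385 TPM and was not called (-1.39 ± 0.27). Capitals mark the CArG box, and a match is a description of the letters only.

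Myl9, chr2:156775263-156775352, plus strand, CArG box at -161 to -152 from the start: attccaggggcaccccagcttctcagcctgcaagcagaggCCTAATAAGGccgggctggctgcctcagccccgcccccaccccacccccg

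Cnn2, chr10:79988504-79988593, plus strand, CArG box at -56 to -47 from the start: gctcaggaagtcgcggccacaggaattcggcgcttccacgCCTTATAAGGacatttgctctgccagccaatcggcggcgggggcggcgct

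Hox transcription factors keep a record of position along the body axis, and fibroblasts retain it in culture. Of 15 Hox genes tested, 10 were lower and none higher (median -2.94). Hoxb5, active in lung mesenchyme, was at 36.2 and 40.3 TPM, Hoxb6 at 42.5 and 36.8 TPM and Hoxb2 at 22.3 and 20.2 TPM, and all 3 were listed at 0 in both CD44high-labelled lines. On chromosome 11, the 7 genes tested from Hoxb8 (start 96281905) to Hoxb2 (end 96354012) were contiguous, and 6 were lower, the other being Hoxb3 (1.8 and 2.89 TPM, listed at 0 in the CD44high-labelled lines, not called). Hoxa7 was at 36.1 and 33.7 TPM against 0.55 and 0.68 TPM. In LN, BM and MFP libraries these 4 named genes were at 1.5 TPM or less.

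Of the regulators of lung mesenchyme, 7 of 24 tested were lower and 2 higher (median -1.07). Foxf1, a forkhead factor of the lung mesoderm, was at 94.8 and 98.5 TPM against 1.08 and 0.19 TPM (-5.96 ± 0.44), Tcf21, a factor of lung fibroblasts, at 16.2 and 27.6 TPM and listed at 0 in the CD44high-labelled lines, and Tbx3 at 19.8 and 19.5 TPM against 0.15 and 0.16 TPM. The other direction was seen in Ebf1, a factor of B cells and of adipocyte and stromal precursors (0.80 and 0.73 against 43.5 and 22.6 TPM) and the nuclear receptor gene Nr2f1 (2.69 and 4.65 against 54.6 and 33.2 TPM), which were higher. Wt1, known from mesothelium and the urogenital ridge, did not differ by the test (18.2 and 22.1 against 21.6 and 22.6 TPM) and was listed at 0 in every LN, BM and MFP library. Imprinted genes, expressed from a single parental copy and active in fetal tissue, included 10 lower and 1 higher of 19 (median -2.06). Grb10, an adaptor that restrains insulin signaling, was at 187 and 269 TPM against 2.38 and 1.18 TPM, and Mest at 39.5 and 36.9 TPM against 0.47 and 0.44 TPM. The noncoding Rian was at 10.3 and 31.3 TPM and listed at 0, and Peg3 was the member that was higher (0.18 and 0.44 against 7.52 and 5.21 TPM).

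Growth factor ligands and receptors contributed 22 lower and no higher of 43 (median -2.46). Fgf10, the mesenchymal ligand that drives lung branching through epithelial Fgfr2b, was at 341 and 410 TPM against 0.06 and 0.13 TPM (-8.42 ± 0.17, adjusted p = 7.02e-10), and was listed at 0 in all LN, BM and MFP libraries. Its relative Fgf7, the keratinocyte growth factor, was at 210 and 198 TPM and listed at 0 in the CD44high-labelled lines. Antagonists and ligand-binding proteins led the TGF-beta and BMP genes, of which 16 were lower and 2 higher of 45 (median -0.56). The follistatin-like gene Fstl1 was at 211 and 324 TPM against 0.33 and 0 TPM, the activin antagonist Fstl3 at 208 and 212 TPM against 0.27 and 0.42 TPM, and the BMP antagonist Grem1 at 47.6 and 67.5 TPM and listed at 0. Bmper, a secreted modulator of BMPs, was at 69.6 and 106 TPM against 1.88 and 3.40 TPM. The BMP ligand Gdf6 (0.03 and 0.14 against 12.1 and 11.3 TPM) and the antagonist Chrd (4.12 and 5.38 against 31.0 and 21.8 TPM) were higher. The Chrd difference falls just short of the threshold without the first CD44high-labelled library.

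For the Wnt pathway, 13 of 29 tested members were lower and 3 higher (median -1.34). R-spondin 3, the ligand of LGR receptors encoded by Rspo3, was at 271 and 254 TPM against 4.58 and 11.9 TPM (-4.96 ± 0.33), the Dickkopf family gene Dkk3 at 44.8 and 56.4 TPM against 0.04 and 0 TPM, and the WNT5A receptor gene Ror2 at 19.2 and 27.9 TPM and listed at 0. Nkd2, an intracellular antagonist, was at 26.5 and 24.8 TPM against 0.23 and 0.04 TPM, although LN and BM lines held 17.99 to 95.5 TPM. The higher members were the Wnt-inactivating enzyme gene Notum (0.09 and 0.06 against 22.8 and 13.2 TPM), Wnt5a (2.45 and 3.60 against 49.3 and 31.3 TPM) and Fzd6 (2.91 and 4.89 against 33.8 and 19 TPM). The ligand gene Wnt5a and its receptor gene Ror2 changed in opposite directions.

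Chemokines, cytokines and acute-phase genes showed 19 lower and 3 higher of 36 (median -2.04). Cxcl12, the ligand of CXCR4, was at 1687 and 2522 TPM against 30.0 and 36.2 TPM (-5.92 ± 0.39), and was at most 0.01 TPM in LN and BM. The monocyte chemokine Ccl7 was at 61.6 and 80.6 TPM against 0 and 0.16 TPM, and its neighbor Ccl2 at 58.9 and 102 TPM against 0.18 and 0.16 TPM. Ptgs1, the constitutive cyclooxygenase, was at 237 and 189 TPM against 0.27 and 0.52 TPM. The pentraxin Ptx3 (0.69 and 0.39 against 17.5 and 33.6 TPM), the decoy receptor Tnfrsf11b (83.4 and 95.1 against 531 and 615 TPM) and Il34 (3.5 and 6.11 against 30.6 and 20.4 TPM) were higher. The Il34 difference falls short of the threshold without the first CD44high-labelled or the first CD44low-labelled library. Complement genes had 5 lower and none higher of 17 (median -1.63). The inhibitor gene Serping1 (35.6 and 32.4 TPM, listed at 0 in the CD44high-labelled lines) was among them, as was C4b (34.6 and 62.1 against 0.95 and 0.63 TPM).

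Of 40 interferon-stimulated and MHC class I genes tested, 3 were higher and 3 lower, 7.5% each way, with a median of 0.52. At an unadjusted p under 0.05 and any size of difference, 15 were higher and 4 lower. The peptide transporter subunit Tap2 was at 22.4 and 18.9 TPM against 161 and 143 TPM (2.83 ± 0.36, adjusted p = 0.000173), above the 5.01 to 20.04 TPM of LN and BM, and the immunoproteasome subunit Psmb9 at 1.31 and 0.46 TPM against 11.2 and 12.1 TPM. Ifit3 (36.1 and 32.9 against 1.51 and 2.26 TPM) and its near-identical neighbor Ifit3b (29.4 and 30.9 against 1.07 and 1.77 TPM) were lower, and reads of this pair may be shared between them. The third of each direction, Trim30a (0.40 and 0.27 against 5.07 and 4.52 TPM) and Bst2 (33.0 and 30.8 against 4.88 and 10.0 TPM), was named after its values were seen. The Bst2 difference falls short of the threshold without the first CD44high-labelled or the first CD44low-labelled library.

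Proliferation genes gave no call in bulk. By limma, 0 of the 28 mitosis genes tested and 0 of the 43 DNA replication genes tested were called, with medians of 0.14 and 0.13. At an unadjusted p under 0.05 and any size of difference, 1 mitosis gene was higher and 0 lower, and 1 replication gene was higher and 2 lower. The checkpoint gene Bub3 was at 80.3 and 82.5 TPM against 190 and 178 TPM (1.16 ± 0.28, adjusted p = 0.00848), a difference smaller than the threshold. The kinase Cdk1 was at 31.9 and 27.9 TPM in the CD44low-labelled lines and at 1.64 and 25.3 TPM in the CD44high-labelled ones, which disagreed with each other. The 6 cycling markers summed to 35.4 and 35.7 TPM against 3.39 and 53.1 TPM, all below the 467 to 4875 TPM of LN and BM. Of the inhibitors, D cyclins and p53 target genes, 11 of 41 were lower and none higher (median -1.01). The INK4 inhibitor Cdkn2b was at 113 and 71.6 TPM against 0.49 and 0.26 TPM (-6.05 ± 0.27), and its neighbor Cdkn2a at 4.57 and 4.43 TPM against 0.65 and 0.28 TPM, a difference of -1.92 ± 0.15 that missed the threshold of 2. Cyclin D2, encoded by Ccnd2, was at 408 and 474 TPM against 13.3 and 13.1 TPM, and the p53 targets Phlda3 and Eda2r at 192 and 194 against 9.27 and 8.39 TPM and at 30.1 and 34.4 TPM against a listing of 0.

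Metabolic lists differed in kind. Nuclear genes of oxidative phosphorylation had no call by limma among 75 tested and a median of -0.07, with 11 higher and 16 lower at an unadjusted p under 0.05 and any size of difference, as in the complex IV subunit Cox4i1 (2933 and 3232 against 1541 and 2250 TPM). Glycolysis and hypoxia genes included 12 lower and none higher of 40 (median -1.21). The heart-type lactate dehydrogenase subunit Ldhb was at 456 and 515 TPM against 3.89 and 3.99 TPM (-6.62 ± 0.28), the lactate exporter Slc16a3 at 17.5 and 29.7 TPM against 0.21 and 0.23 TPM, and the stress-response gene Ndrg1 at 66.5 and 61.2 TPM against 0.04 and 0.75 TPM. Glutathione, thioredoxin and NRF2 target genes had 20 lower and none higher of 48 (median -1.77). Besides Gpx3, the glutathione transferase Gstm2 (520 and 504 against 0.53 and 2.08 TPM), the extracellular superoxide dismutase Sod3 (318 and 276 against 0.85 and 1.18 TPM) and the endoplasmic reticulum peroxiredoxin Prdx4 (232 and 191 against 0.14 and 0 TPM) led them, and reads of Gstm2 may be shared with its close paralogs. Prdx4 was at 115 to 260 TPM in LN and BM, so here it was the CD44high-labelled lung lines that stood apart.

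Retinoid and aldehyde dehydrogenase genes showed 7 lower and 1 higher of 26 (median -0.77), among them Rarres1 (60.8 and 60.8 TPM), listed at 0 in the CD44high-labelled lines, and the chemerin gene Rarres2 (136 and 91.5 against 0.06 and 0 TPM). The aldehyde dehydrogenase Aldh3a1 was the higher member, at 5.01 and 5.88 TPM against 158 and 229 TPM. Lipid synthesis genes had 4 lower and 1 higher of 35 (median -0.35). The acetyl-CoA synthetase Acss2 was higher (3.55 and 3.14 against 33.2 and 22.9 TPM), while the stearoyl-CoA desaturase Scd1 (55.7 and 56.5 against 14.5 and 9.78 TPM, -2.14 ± 0.20) and the malic enzyme Me1 (61.4 and 111 against 12.01 and 11.8 TPM) were lower. Without the second CD44high-labelled library the Scd1 difference was -1.88 and no longer called, and it was -1.92 and not called after removal of mitochondrial and ribosomal RNA genes. The 6 adipocyte markers summed to 58.4 to 105 TPM against 12.7 to 14.1 TPM. Among them, the fatty acid carrier Fabp4 was lower (102 and 55.0 against 0.49 and 0.57 TPM) and the lipase Lpl higher (0.85 and 1.9 against 11.8 and 13.4 TPM).

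Smaller families completed the lists. Clustered protocadherins, expressed by choice of single promoters, changed both ways, with 6 lower and 2 higher of 31 (median 0.70), and reads of these similar genes may be shared. At an unadjusted p under 0.05 by limma and any size of difference, 14 were higher and 9 lower. Pcdhga6 rose from at most 0.05 TPM to 21 and 6.8 TPM and Pcdhb7 from 0.94 and 1.0 TPM to 7.31 and 7.5 TPM, and Pcdhgc5 fell from 9.86 and 14.1 TPM to 0.39 and 0.13 TPM. Of the proliferins, growth-related prolactin-family hormones with near-identical copies, 2 were tested (median 1.41), and Prl2c3 was higher (0.30 and 0 against 6.71 and 11.7 TPM, 3.12 ± 0.78, adjusted p = 0.0104). It lost its call without the second CD44high-labelled library (2.76) and without either CD44low-labelled one (3.31 and 2.93), while MFP held 18129 and 13372 TPM. Among DNA methylation and methylation-silenced germline genes, 1 of 5 tested was called, and it was lower (median -0.56), the methyltransferase cofactor Dnmt3l, at 6.26 and 6.45 TPM and listed at 0 in the CD44high-labelled lines.

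Of 30 transcripts of the mitochondrial genome tested, 13 were higher and none lower, 43.3% against the background of 3.05%, with a median of 2.50. Of the 13 calls, 7 were short tRNAs (15 tested), each listed at 0 in both CD44low-labelled libraries, and 2 were ribosomal RNAs. Levels of tRNAs were uneven within a group, as in mt-Ts1, at 0 and 9393 TPM in the CD44low-labelled libraries and not called. The large ribosomal RNA mt-Rnr2 was at 15192 and 15009 TPM against 99011 and 51046 TPM (2.24 ± 0.50, adjusted p = 0.00612). Of the 13 mitochondrial protein-coding genes, 4 were higher (median 1.73), as in mt-Nd3 (196 and 161 against 2197 and 4011 TPM), whereas mt-Nd1 was at 3837 and 3541 against 2271 and 3655 TPM. Because every library adds up to 1000000 TPM, a larger mitochondrial share lowers the values of all other genes. After removal of mitochondrial and ribosomal RNA genes and rescaling, chosen after seeing the data, the median difference of all genes moved from -0.09 to 0.12, and 522 genes were higher and 1265 lower.

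Position on the chromosomes was looked at next. Median differences were lowest on chromosome 4 (-0.56, with 106 of 741 genes lower and 7 higher) and chromosome 10 (-0.51, with 99 of 620 lower and 9 higher). Chromosome 6 followed at -0.41. The shares called lower and higher were 14.3% and 0.945% on chromosome 4 and 15.97% and 1.45% on chromosome 10. Over all genes tested, these shares were 10.7% and 3.05%. The highest nuclear medians were 0.27 on chromosome 7 and 0.23 on chromosome 12. With a filter of 10 TPM the order was reversed, at 0.27 and 0.39. For chromosome 4, each of the 4 pairings of a CD44high-labelled with a CD44low-labelled library gave a median between -0.64 and -0.48, and for chromosome 7 between 0.20 and 0.31. The DNA copy number of these lines was not measured here.

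The lung difference was set against the CD44 differences in the other organs. Between CD44high and CD44low lines, 7 genes were called in LN (0.0548% of the genes tested) and 5 in BM (0.0391%), with 65 and 74 past the difference of 2 at an unadjusted p under 0.05. These counts are of genes chosen for their level in lung, and they were not stable. With the filter set over all 14 libraries, 32 genes were called in LN and 16 in BM, and with median-ratio scaling 16 and 9. Leaving out BM CD44low replicate 1 gave 916 calls in BM (36 higher and 880 lower) in place of 5, and leaving out LN CD44low replicate 1 or 2 gave 26 or 37 calls in LN in place of 7. By interaction contrasts, the lung difference departed from that in LN for 1619 genes (12.7%, with 4.09% higher and 8.59% lower) and from that in BM for 1361 genes (10.7%, with 3.44% higher and 7.22% lower). These contrasts use the same 4 lung libraries as the lung comparison. The contrast with BM also rested in part on these libraries. Without BM CD44low replicate 1, 804 genes were called higher in place of 439, and without BM CD44low replicate 2, 1418 were called lower in place of 922.

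Of the genes called in LN or BM with all libraries, 1 was called in the same direction in lung. Id3, an inhibitor of differentiation downstream of BMP, was at 979 and 796 TPM against 241 and 195 TPM in lung (-2.02), and its LN difference was -2.47. The lung difference of Id3 falls short of the threshold without the first CD44low-labelled or the second CD44high-labelled library. Another 4 calls went opposite ways in lung and LN, and all genes of this paragraph were named after their values were seen. The carbonyl reductase Cbr2 (-3.33 in lung, 3.01 in LN) and the uncharacterized 0610040J01Rik (-4.12 and 3.09) were lower in lung and higher in LN, while the small noncoding genes Gm22710 and Gm24888 were called higher in lung and lower in LN and BM. Gm22710 was at 12.2 and 9.94 TPM against 142 and 92.1 TPM in lung, and was listed at 0 in the LN and BM CD44high lines against 26.8 to 83.3 TPM in the CD44low ones. Gm24888 was listed at 0 in the CD44low-labelled lung lines against 10.6 and 4.86 TPM, and at 0 in the LN and BM CD44high lines against 6.03 to 16.3 TPM in the CD44low ones. The other calls in LN were Id1 (-2.87, and 0.16 in lung) and Fam19a5 (-4.33, and 1.51 in lung). In BM they were the acute-phase gene Saa3 (5.53), the receptor gene Tlr2 (2.15) and Asdurf, which was at 21.6 and 16.6 TPM and listed at 0 in the CD44high lines. None of these 5 was called in lung. Under 1 TPM in all 10 libraries of the other organs were 310 of the genes lower in the CD44high-labelled lung lines (22.6%) and 55 of those higher (14.1%), compared with 6.91% of all genes tested.

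The same labels were compared in the single-cell libraries. After cells with more than 250 genes and under 10% of counts in mitochondrial genes were kept, the CD44high library had 1236 of 3623 barcodes with a median of 557 counts and 281 genes, and the CD44low library 348 of 2808 with medians of 4011 counts and 1519 genes. Only 221 CD44high cells had more than 500 genes, and doublets were not removed. Whether these cells came from the clones used in bulk is not stated, and the barcode names do not allow shared barcodes to be counted. With 1 library a group there is no test, so counts were summed over cells and are given per 10000 with exact Poisson 95% intervals, which cover counting error only.

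Most bulk calls had the same direction in these sums. Among called genes with at least 20 counts, 217 of 239 higher genes (90.8%) were higher and 791 of 986 lower genes (80.2%) were not higher in the CD44high cells, whereas 54.5% of the 8691 genes not called were higher. Acta2 had 45.6 counts per 10000 (44.7 to 46.4) in CD44low and 0.0588 (0.0313 to 0.101) in CD44high cells. Bgn had 11.6 (11.2 to 12.1) against 0.00452 (0.000115 to 0.0252), and Grem1 21.4 (20.8 to 22.02) against 0.176 (0.125 to 0.241). For Col1a2 there were 3192 counts against 0, with an upper limit of 0.0167 per 10000 in CD44high cells. In the other direction, Gata3 had 0.428 (0.346 to 0.523) in CD44low and 6.12 (5.803 to 6.46) in CD44high cells, and Krt8 0.135 (0.0911 to 0.193) against 1.67 (1.503 to 1.85). Sprr1a had 0 counts, with an upper limit of 0.0166, against 0.534 (0.442 to 0.639).

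**Figure D5:**
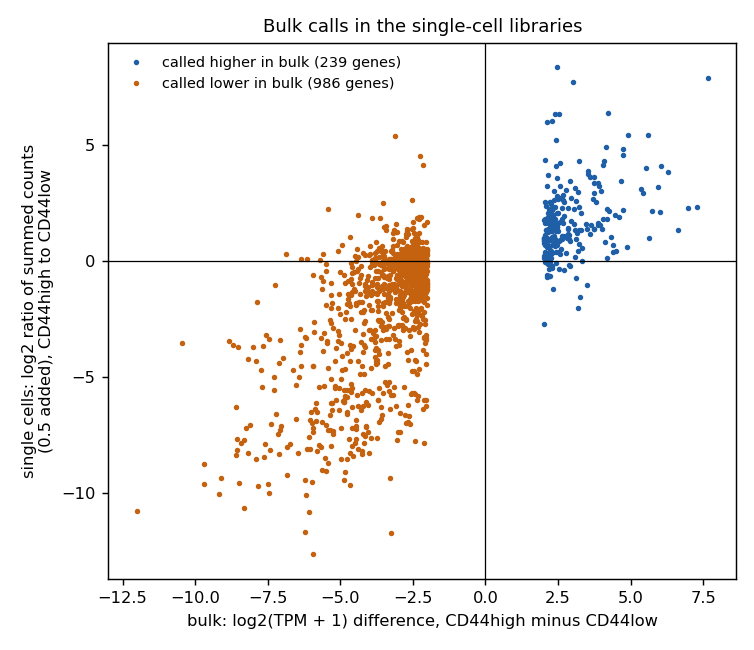
Bulk log2(TPM + 1) difference (horizontal axis) against the log2 ratio of summed single-cell counts, with 0.5 counts added to each sum (vertical axis), both CD44high relative to CD44low, for called genes with at least 20 counts. Of the genes called higher in bulk, 217 of 239 lie above 0, and of those called lower 791 of 986 lie at or below 0.

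Some named genes did not keep their bulk direction or level in the single cells. Cd44 itself was lower in the CD44high cells, at 4.99 (4.70 to 5.29) against 8.51 (8.13 to 8.90) per 10000, and Epcam had 3 and 0 counts. Cebpb was higher there, at 4.64 (4.36 to 4.93) against 2.84 (2.62 to 3.07). Prl2c3 went the other way, at 11.7 (11.2 to 12.1) against 19.4 (18.8 to 19.96). The interval of Me1, lower in bulk, was 1.13 to 1.43 in CD44high and 0.969 to 1.25 in CD44low cells, and Acss2, higher in bulk, had 9 and 12 counts. Dcn, the leading fibroblast marker in bulk, had 22 counts in CD44low and 0 in CD44high cells, and Lum, Inmt, Pgr and Tcf21 had 0 in both. Cd24a differed by less than in bulk, at 6.33 (6.01 to 6.67) against 4.18 (3.92 to 4.46). The proliferation antigen gene Mki67, too low to be tested in bulk (at most 1.24 TPM), had 1.84 (1.67 to 2.03) in CD44high and 0.266 (0.202 to 0.343) in CD44low cells. Vim, not called in bulk, had 34.2 (33.5 to 35.03) in CD44high and 21.1 (20.5 to 21.7) in CD44low cells. Zeb1, not called either, had 0.656 (0.554 to 0.772) and 1.31 (1.16 to 1.47).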

How the data were processed

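RNA of the cultured lines was made into cDNA with a modified SMART-seq2 protocol and Nextera XT libraries. The deposited TPM values, used here as given, were made by the authors with STAR (mm10) and RSEM (GENCODE v21). TPM sum to 1000000 in each library, keep no read depth, and the protocol does not mark strand, so overlapping and antisense genes cannot be told apart. All 55450 gene identifiers matched GENCODE vM21, which gave symbols and mm10 positions. For the 2 lung single-cell libraries (ddSeq, SureCell, kallisto), the authors deposited raw counts per gene and barcode.

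A gene was tested if 2 or more lung libraries held 1 TPM or more. log2(TPM + 1) was fitted over all 14 bulk libraries as 7 group means with limma 3.58.1 (eBayes with a trend, R 4.3.3), so that the groups share an estimate of spread with 7 residual degrees of freedom. The lung contrast and its interactions with LN and BM were tested with Benjamini-Hochberg adjustment over the 12773 genes. Replicates were separate clones of different mice. Tested on simulated data of 12773 genes, the lung comparison recovered 87.5% of 200 genes shifted by 3 on the log2 scale, with 4 false calls. In the fit of the 4 lung libraries it recovered 63.5% (1 false call), the contrast with LN 66% (1) and that with BM 69.5% (7).

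The gene lists (29), marker lists (12) and members were chosen with earlier results of these data known. Named genes were Cd44, Epcam and Cd24a, the 12 largest rises and falls among called protein-coding genes with groups apart, a proper symbol and a mean of at least 20 TPM in the higher group, up to 4 called genes per list (for a list without calls, its 2 most abundant), and genes that define a list by their role. Alternatives were a pseudocount of 0.1, no filter, a filter of 5 TPM or over 14 libraries, median-ratio scaling, a block for the replicate number, calls by unadjusted p, a GC and length correction, the lung libraries alone and each lung, LN or BM library left out (for named genes, each lung library), and for single cells more than 500 genes, a 20% mitochondrial limit and all barcodes. Removal of mitochondrial and ribosomal RNA and a crossed block were added after the data were seen. Promoter sequences are from RefSeq. Tables were handled with Python 3.11.15, pandas 2.3.3, numpy 2.4.6, and scipy 1.17.1, and plots drawn with matplotlib 3.10.9.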

Additional observations from a re-analysis of the deposited data

Results flagged for a closer look

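The CD44 difference in the lung lines was unlike that in the other organs by a test of the difference itself. It departed from the LN difference for 1619 genes and from the BM difference for 1361 genes by limma interaction contrasts. Both contrasts use the same 4 lung libraries as the lung comparison and are no independent support for it. Groups of 2 libraries were too small for a search for outlying samples.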

How the results depend on the processing

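Under every alternative the counts of genes called in total stayed within 1.5 times of the reported ones for the lung contrast and its interactions with LN and BM, and no named gene reversed. A pseudocount of 0.1 moved the lung genes called higher from 389 to 688 (lower 1848). Leaving out 1 lung library gave 1445 to 1639 lung calls (321 to 469 higher, 1050 to 1246 lower). Leaving out 1 library of the organs compared gave 1326 to 1665 calls for the contrast with LN (368 to 658 higher, 852 to 1138 lower) and 1162 to 1831 with BM (313 to 804 higher, 783 to 1418 lower), the highest counts in BM coming without BM CD44low replicate 1 or 2. Leaving out either of these 2 libraries, which bear on the other contrasts only through the shared spread, gave 1815 lung calls (396 higher, 1419 lower) and 1891 for the contrast with LN (558 higher, 1333 lower). Of 115 named genes called, 111 kept their call under every alternative that tested them, which left out lung libraries only and in which the 5 TPM filter tested 128 of the 133 named genes, 4 lost theirs under at least 1, among them Scd1, Prl2c3 and Esr1, and of those not called, Cdk1, Lyz2 and Pdgfra were called under 1 alternative each and Cdkn2a under 2. These counts of named genes do not cover Id3, Bst2, Il34 and Chrd, which were named after their values were seen. All 4 lie near the threshold and fall short of it without 1 of the lung libraries. The labels number the clones 1 and 2 in each group without saying that a number is shared by design. Deviations of same-numbered lung libraries correlated at -0.25, and the fit with the replicate number as a block called 1730 genes in lung, 1552 against LN and 1305 against BM. The crossed pairing of the lung libraries, added after seeing the data, gave 1746. In single cells, the share of bulk calls with the same direction was 89.4% to 91.0% for higher and 79.2% to 80.9% for lower genes. Counting error of low TPM could not be computed.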
